A study of Homo sapiens with 6 samples.

Results

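The Hippo pathway and its TEAD transcription factors were followed through 10 genes, YAP1, WWTR1, TEAD1, TEAD2, TEAD3, TEAD4, LATS1, LATS2, AMOTL2 and ANKRD1, chosen by symbol from the 59008 genes of the table. All 10 had a mean of at least 1 TPM (transcripts per 1000000, a level scaled to transcript length and library total), as did 14988 genes of the table, and each of the 10 was above 1 TPM in all 6 libraries. RNA was sequenced from Hey and SKOV3, established human ovarian cancer cell lines, in 3 states with 1 library per line and state. Parental cells were untreated. PGCCs (polyploid giant cancer cells) had been exposed to 500 nM paclitaxel, a drug that stabilises microtubules and blocks mitosis, for 16 h and then given 3 days in drug-free medium. Daughter cells, which bud from PGCCs, had the same exposure and 30 days of recovery, and their sample titles name a single clone in each line. The title of the SKOV3 PGCC library gives day 7 where its treatment label gives 3 days. No group had a second library, so no value below carries a replicate error, and the differences between states have no replicate check within a line.

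In the Hippo pathway a chain of kinases ends in LATS1 and LATS2, which phosphorylate the coactivators YAP (made from YAP1) and TAZ (made from WWTR1) and hold them in the cytoplasm. When the kinases are quiet, the coactivators enter the nucleus and bind TEAD1 to TEAD4, which carry the DNA-binding domain and switch on genes of growth, cytoskeleton and matrix. AMOTL2, an angiomotin family scaffold that retains YAP at cell junctions and actin, and ANKRD1, an ankyrin repeat protein, are much used readouts because YAP and TEAD induce both, and LATS2 is also a target that feeds back on the pathway. RNA levels say nothing of phosphorylation or of where the proteins are in the cell.

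TEAD factors recognise GGAATG, or CATTCC read on the other strand, and the sequences that follow show where these letters stand before the genes on which the results turn. In the RefSeq promoter table (GRCh38.p14, 250 bases before to 50 after each start, searched on both strands), 8 of the 10 members had windows. Of their 12 windows, 4 held the motif, belonging to YAP1, LATS2, AMOTL2 and ANKRD1. For comparison, it was found in 14.03% of all 35116 windows and in 11.51% of the windows of genes with a mean of at least 1 TPM. ANKRD1 and CCN2, a matrix protein gene used alongside it as a readout, are shown over the 250 bases before their starts (chr10:90921088-90921337 and chr6:131951373-131951622, both read on the minus strand), with the motif in capitals.
ANKRD1: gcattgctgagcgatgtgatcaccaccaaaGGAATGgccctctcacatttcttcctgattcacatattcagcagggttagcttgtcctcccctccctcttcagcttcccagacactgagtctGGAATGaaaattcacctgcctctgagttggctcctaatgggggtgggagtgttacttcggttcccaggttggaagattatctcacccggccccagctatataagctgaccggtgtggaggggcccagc
CCN2: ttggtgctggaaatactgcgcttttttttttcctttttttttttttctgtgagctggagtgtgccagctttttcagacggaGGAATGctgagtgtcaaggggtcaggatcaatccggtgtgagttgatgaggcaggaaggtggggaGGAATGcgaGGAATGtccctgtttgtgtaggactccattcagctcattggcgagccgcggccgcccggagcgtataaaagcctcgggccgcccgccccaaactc
The ANKRD1 window held the motif at positions -220 and -128 from the start, and the CCN2 window at -169, -104 and -95, the last pair separated by a few bases. The remaining members with a match are shown over 30 bases, for YAP1 on the plus strand (chr11:102110273-102110302), and for AMOTL2 (chr3:134374499-134374528) and LATS2 (chr13:21061560-21061589) on the minus strand.
YAP1: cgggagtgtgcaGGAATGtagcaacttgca
AMOTL2: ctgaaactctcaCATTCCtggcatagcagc
LATS2: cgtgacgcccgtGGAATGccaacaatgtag
YAP1 had its match at -162, AMOTL2 had the reversed form at -69 in 1 of its 2 windows, and LATS2 had its match 9 bases after the start. These are matches of letters and not evidence of binding. TEAD1 and TEAD4 were not searched.

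ANKRD1 was the member that moved most. It lies at chr10:90912096-90921087 on the minus strand (hg38). The level of ANKRD1 was 1.89 TPM in parental Hey cells, 20.5 TPM in their PGCCs and 14.0 TPM in their daughter cells. In SKOV3 it was 3.02 TPM in parental cells, 6.21 TPM in PGCCs and 102 TPM in daughter cells. Both parental libraries were the lowest of their line, the PGCCs stood highest in Hey, and the daughter cells stood highest in SKOV3. The TPM ratio to parental cells was 10.8 (PGCCs) and 7.40 (daughter cells) for Hey, against 2.05 and 33.7 for SKOV3.

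On the scale used for calls, the difference of log2(TPM + 1) with a threshold of 1 (2-fold), ANKRD1 rose by 2.89 in Hey PGCCs, by 2.37 in Hey daughter cells and by 4.68 in SKOV3 daughter cells. In SKOV3 PGCCs its difference was 0.84, which did not reach 2-fold on this scale because the added 1 weighs on low levels. With a pseudocount of 0.1 that difference was 1.01, and with the trend of GC content and length removed it was 1.24. ANKRD1 was lower in SKOV3 PGCCs than in their daughter cells by -3.84, and in Hey it was 0.52 above the daughter cells. Over the alternative scalings, pseudocount and trend removal its difference from parental cells was between 2.66 and 3.37 in PGCCs of Hey, between 1.996 and 2.823 in the Hey daughter cells and between 4.44 and 5.03 in those of SKOV3. Over the 6 libraries its log2 levels spanned 5.15, wider than those of 97.4% of the genes.

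Other measures differed among the same libraries, and their part in the change of ANKRD1 was not tested. Mitochondrial transcripts made up 2.64%, 12.3% and 7.60% of the TPM in the parental, PGCC and daughter libraries of Hey, and 9.17%, 7.37% and 14.8% in those of SKOV3. ANKRD1 is also made by muscle cells and fibroblasts. The summed level of 8 fibroblast markers was 0.302, 3.66 and 0.274 TPM in the parental, PGCC and daughter libraries of Hey and 12.9, 13.2 and 28.3 TPM in those of SKOV3. Of the 8, at most 3 reached 1 TPM in a library, and in SKOV3 daughter cells these included COL1A1 at 16.3 TPM and PDGFRB at 5.35 TPM, against 2.35 and 0.28 TPM in parental cells. LUM was lower there, at 5.56 TPM against 8.84 TPM, as was DCN at 0.0292 TPM against 1.33 TPM. COL3A1 was listed at 0 in all the SKOV3 libraries and in 2 of the 3 Hey libraries. In bulk RNA, fewer cells of a kind and less RNA per cell cannot be told apart.

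**Figure D1:**
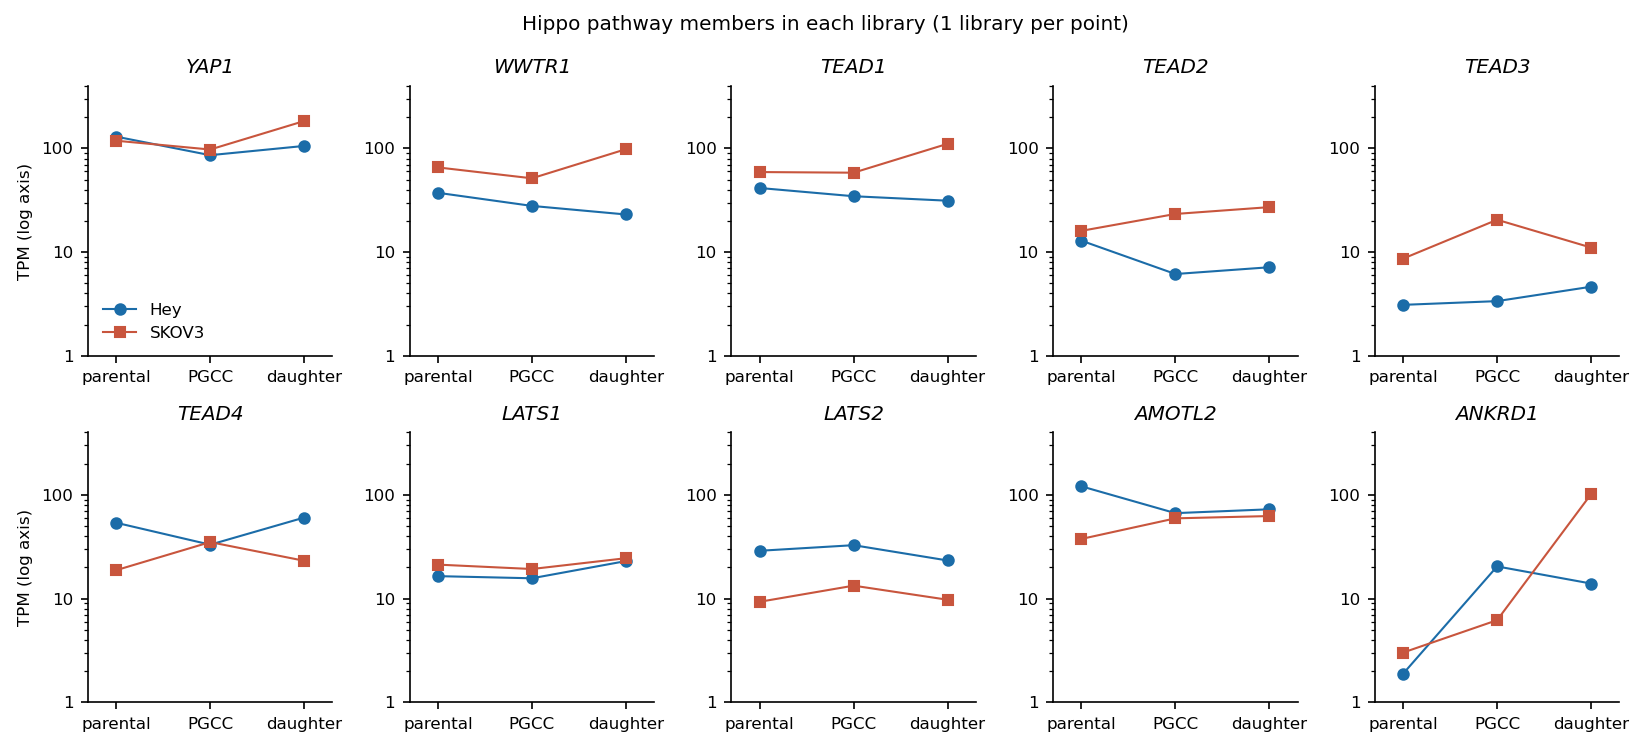
Level of each of the 10 members (TPM, log axis) in the parental, PGCC and daughter libraries of Hey (circles) and SKOV3 (squares), with 1 library per point. ANKRD1 spans 1.89 to 102 TPM, whereas YAP1 stays between 86.1 and 184 TPM and LATS1 between 15.7 and 24.6 TPM.

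None of the differences of the coactivators between states reached 2-fold on the deposited scale. YAP1 (chr11:102110447-102233424, plus strand) was at 130, 86.1 and 106 TPM in the parental, PGCC and daughter libraries of Hey and at 119, 97.6 and 184 TPM in those of SKOV3. WWTR1 (chr3:149517235-149736714, minus strand), which encodes TAZ, was at 37.4, 27.9 and 23.1 TPM in Hey and at 65.6, 51.5 and 98.4 TPM in SKOV3. PGCCs had the lowest YAP1 of each line, with differences from parental cells of -0.59 in Hey and -0.28 in SKOV3, and their WWTR1 differences were -0.41 and -0.34. In daughter cells the lines parted. YAP1 differed from parental cells by -0.30 and WWTR1 by -0.67 in Hey, against 0.63 and 0.58 in SKOV3. For PGCCs against daughter cells YAP1 and WWTR1 were at -0.29 and 0.26 in Hey and at -0.91 and -0.92 in SKOV3. The SKOV3 values were -1.03 and -1.04 with mitochondrial transcripts left out. With the trend of GC content and length removed they were -0.57 and -0.53.

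YAP1 exceeded WWTR1 in all 6 libraries. The ratio of their TPM was 3.48, 3.08 and 4.58 in the parental, PGCC and daughter libraries of Hey and 1.81, 1.89 and 1.87 in those of SKOV3. The ratios of the lines did not overlap, and in SKOV3 the ratio was nearly flat over the 3 states. Between 90.0% and 95.3% of the genes were below YAP1 in each library, and between 66.3% and 89.8% were below WWTR1.

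The TEAD factors differed in which gene led. TEAD1 (chr11:12674421-12944737, plus strand) was at 41.6, 34.6 and 31.4 TPM in the parental, PGCC and daughter libraries of Hey and at 59.2, 58.4 and 111 TPM in SKOV3. TEAD4 (chr12:2959330-3040676, plus strand) was at 54.0, 33.2 and 60.5 TPM in Hey and at 18.8, 35.1 and 23.2 TPM in SKOV3. TEAD4 was above TEAD1 in parental and daughter Hey cells, was just below it in Hey PGCCs, and was below it in all 3 SKOV3 libraries.

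TEAD2 and TEAD3 were higher in SKOV3. TEAD2 (chr19:49340595-49362457, minus strand) was at 12.9, 6.16 and 7.16 TPM in the parental, PGCC and daughter libraries of Hey and at 16.1, 23.4 and 27.2 TPM in SKOV3. TEAD3 (chr6:35473597-35497079, minus strand) was at 3.11, 3.37 and 4.65 TPM in Hey and at 8.67, 20.5 and 11.1 TPM in SKOV3. Every SKOV3 library was above every Hey library for both genes.

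The summed TEAD RNA was at 112, 77.3 and 104 TPM in the parental, PGCC and daughter libraries of Hey and at 103, 137 and 172 TPM in those of SKOV3. The PGCC library was thus the lowest of Hey and the middle of SKOV3. TEAD1 supplied 37.3%, 44.8% and 30.2% of this sum in Hey and 57.6%, 42.5% and 64.3% in SKOV3. TEAD4 supplied 48.4%, 42.9% and 58.4% in Hey and 18.3%, 25.5% and 13.5% in SKOV3. In both lines daughter cells had the most uneven split, toward TEAD4 in Hey and toward TEAD1 in SKOV3. The sum of YAP1 and WWTR1 divided by the TEAD sum was 1.5, 1.48 and 1.24 in Hey and 1.79, 1.09 and 1.64 in SKOV3. The coactivator RNA thus exceeded TEAD RNA in every library. These sums, shares and ratios are of deposited TPM. With the trend of GC content and length removed, TEAD1 to TEAD4 differed from parental cells by 0.10, -0.12, 0.41 and 0.13 in SKOV3 PGCCs. YAP1 and WWTR1 then differed by -0.11 and -0.08 there.

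**Figure D2:**
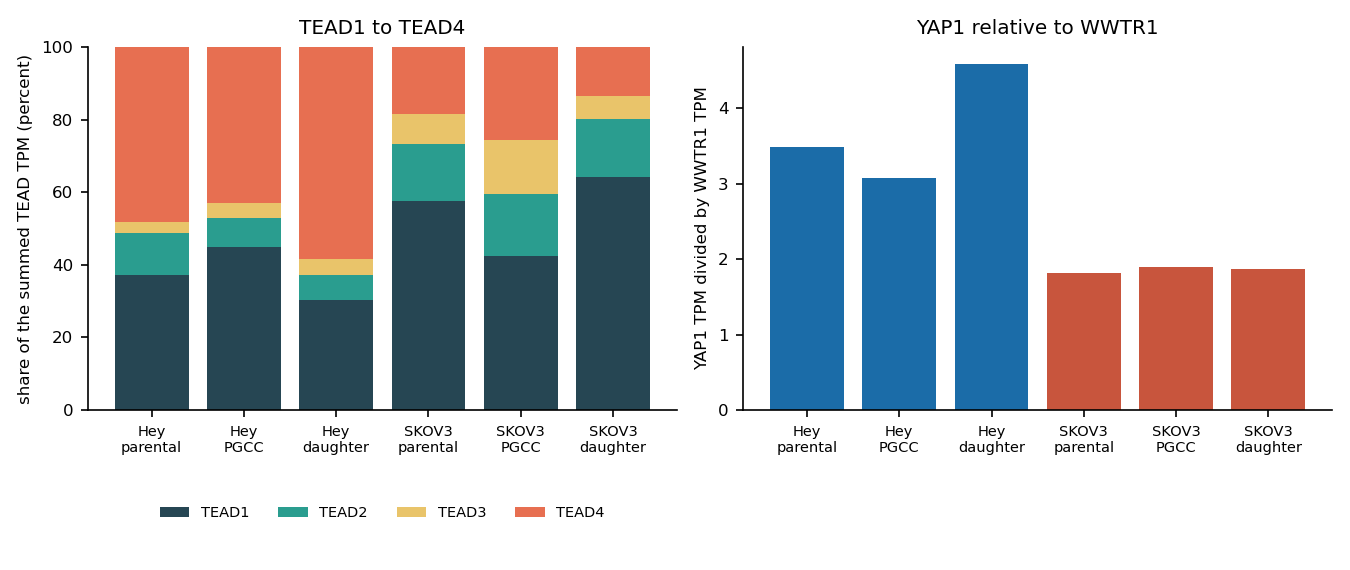
Left, share of the summed TEAD TPM from each TEAD gene (percent) in the 6 libraries, from deposited TPM with the GC and length trend not removed. Right, YAP1 TPM divided by WWTR1 TPM, which lies between 3.08 and 4.58 for Hey but only between 1.81 and 1.89 for SKOV3; each bar is 1 library.

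On the scale used for calls, TEAD3 in SKOV3 PGCCs was the only TEAD difference between states that reached 2-fold. It rose by 1.16 over parental cells, and the difference was 0.41 once the trend with GC content and length was removed. TEAD2 did not reach 2-fold on that scale in Hey PGCCs, at -0.96, with a TPM ratio to parental cells of 0.477. TEAD2 reached -1.06 with a pseudocount of 0.1 and -1.04 when libraries were scaled by the median ratio of their genes. With the trend removed it was at -0.88. TEAD4 differed by -0.69 in Hey PGCCs and by 0.87 in SKOV3 PGCCs, and TEAD1 by 0.89 in SKOV3 daughter cells. For PGCCs against daughter cells of SKOV3 TEAD1 was at -0.91. That value was -1.03 with mitochondrial transcripts left out and -0.52 with the trend removed.

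No difference of the kinases that restrain the coactivators reached 2-fold between states. LATS1 (chr6:149658153-149718105, minus strand) was at 16.5, 15.7 and 23.0 TPM in the parental, PGCC and daughter libraries of Hey and at 21.3, 19.3 and 24.6 TPM in those of SKOV3. LATS2 (chr13:20973036-21061586, minus strand) was at 29.0, 32.8 and 23.3 TPM in Hey and at 9.34, 13.4 and 9.77 TPM in SKOV3. LATS1 had the narrowest span of the 10, at 0.612 on the log2 scale over the 6 libraries, narrower than all but 3.6% of the genes. LATS2 was highest in the PGCCs of each line, by 0.17 and 0.47 over parental cells, which did not reach 2-fold. With the trend of GC content and length removed these LATS2 differences were 0.26 and 0.17, and LATS1 differed by 0.25 in SKOV3 PGCCs. LATS1 divided by LATS2, from deposited TPM, was 0.570, 0.480 and 0.987 in Hey and 2.28, 1.45 and 2.51 in SKOV3. LATS1 exceeded LATS2 in SKOV3, and LATS2 exceeded LATS1 in parental cells and PGCCs of Hey. Both were nearly equal in Hey daughter cells.

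AMOTL2 (chr3:134355347-134375479, minus strand) differed from parental cells with opposite signs in the lines, without reaching 2-fold in either. It was at 121, 66.8 and 72.7 TPM in the parental, PGCC and daughter libraries of Hey and at 37.7, 59.5 and 62.6 TPM in those of SKOV3. Against parental cells AMOTL2 differed by -0.85 (PGCCs) and -0.73 (daughter cells) in Hey, and by 0.65 and 0.72 in SKOV3. The Hey libraries remained above the SKOV3 libraries, with 66.8 TPM as the lowest of Hey and 62.6 TPM as the highest of SKOV3.

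Few members passed 2-fold, and their count was read against the share of all 14988 genes past the same threshold. Of the 10 members, 1 was higher and 0 were lower in Hey PGCCs than in parental cells, where 7.67% of all genes were higher and 5.22% lower. In Hey daughter cells 1 was higher and 0 were lower than in parental cells, against 6.31% and 3.73% of all genes. Between Hey PGCCs and daughter cells no member passed in either direction, against 8.13% of genes higher in PGCCs and 9.95% lower. In SKOV3 PGCCs 1 was higher and 0 were lower than in parental cells, against 9.94% and 4.96% of genes. In SKOV3 daughter cells 1 was higher and 0 were lower than in parental cells, against 15.1% and 6.34% of genes, and between SKOV3 PGCCs and daughter cells 0 were higher and 1 was lower in PGCCs, against 9.25% and 14.6%. With 10 genes, 1 called member is near these shares, so the counts are not a result about the members. The 3 comparisons of a line share their libraries and are not independent of each other.

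The medians of the members differed in sign between the lines. For Hey the median difference of the 10 members from parental cells was -0.332 (PGCCs) and -0.297 (daughter cells), where the medians of all genes were 0 and 0.0497. For SKOV3 these medians were 0.494 and 0.601, where the medians of all genes were 0.0173 and 0.148. With the trend of GC content and length removed, the SKOV3 medians of the members were 0.116 and 0.393, and the Hey medians were -0.313 and -0.385. In SKOV3 daughter cells all 10 members were above parental cells on the deposited scale, as were 8812 of all 14988 genes. With the trend removed 8 of 10 were above, with TEAD3 and LATS2 at -0.03 and -0.26, as were 6629 of 13468 genes. With median-ratio scaling LATS1 and LATS2 were at -0.009 and -0.13. With quantile normalization TEAD3, LATS1 and LATS2 were at -0.04, -0.01 and -0.31.

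**Figure D3:**
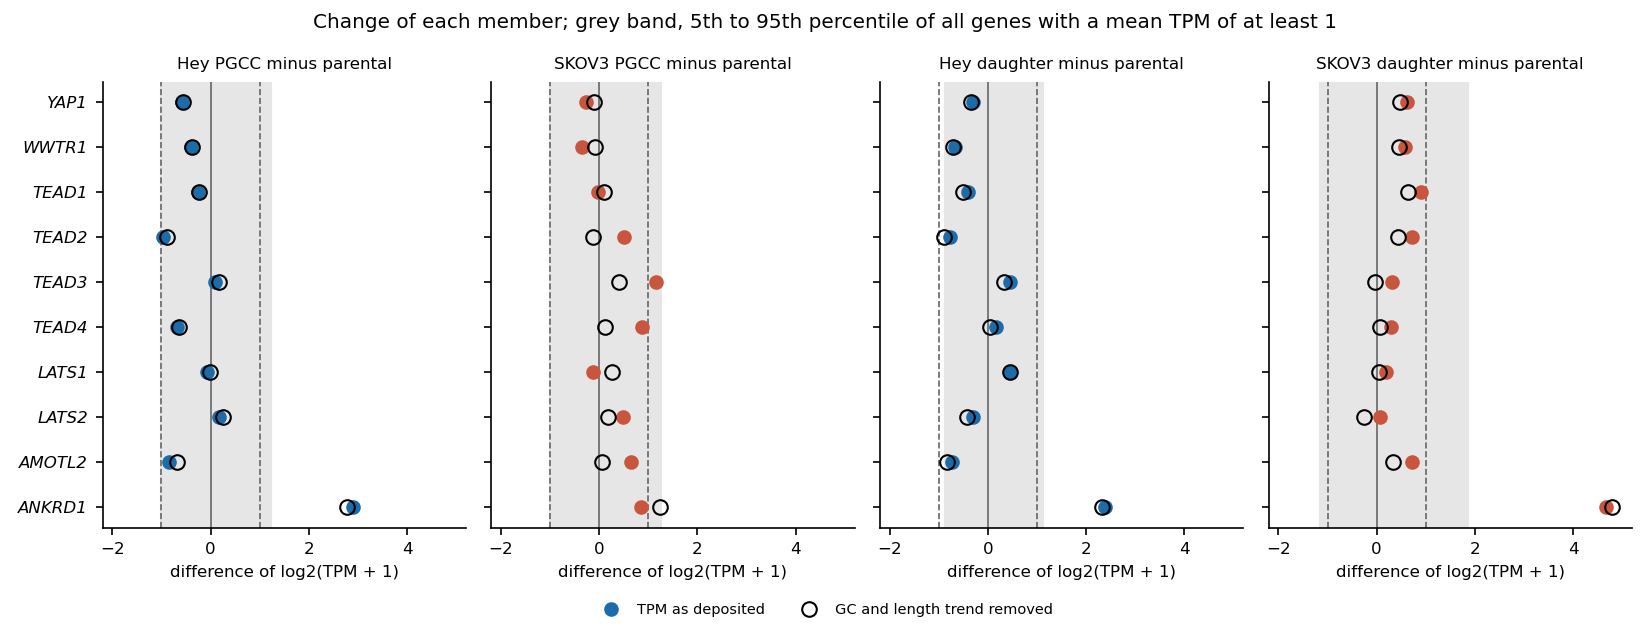
Difference of log2(TPM + 1) of each member in 4 comparisons, as deposited (filled) and with the trend of GC content and length removed (open); the grey band holds the middle 90% of all genes with a mean of at least 1 TPM and the dashed lines mark 2-fold. ANKRD1 lies beyond the band in 3 of the 4 panels, and in SKOV3 PGCCs the filled and open points of TEAD3 lie at 1.16 and 0.41.

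In SKOV3 PGCCs the members with GC-rich transcripts were the ones above parental cells. Across 13468 genes the SKOV3 PGCC difference from parental cells was larger the more GC-rich the transcript was, for a Spearman correlation of 0.712, computed across genes that are not independent replicates. The median difference was -0.522 for genes under 40% GC and 0.938 for genes of 60% or more. The same correlation was -0.0508 in Hey PGCCs. TEAD2, TEAD3, TEAD4 and AMOTL2 have transcripts of 58.4%, 59.8%, 60.4% and 56.3% GC and differed by 0.51, 1.16, 0.87 and 0.65 in SKOV3 PGCCs. With the trend removed these differences were -0.12, 0.41, 0.13 and 0.06. LATS2, at 51.8% GC, differed by 0.47 as deposited and by 0.17 with the trend removed. YAP1, WWTR1, TEAD1 and LATS1, at 43.5%, 42.2%, 43.0% and 39.0% GC, were below parental cells on the deposited scale and at -0.11, -0.08, 0.10 and 0.25 with the trend removed. ANKRD1, at 42.1% GC, was the exception, with a larger difference after removal. A library effect and a change in the cells cannot be told apart here, since each state of a line is 1 library.

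**Figure D4:**
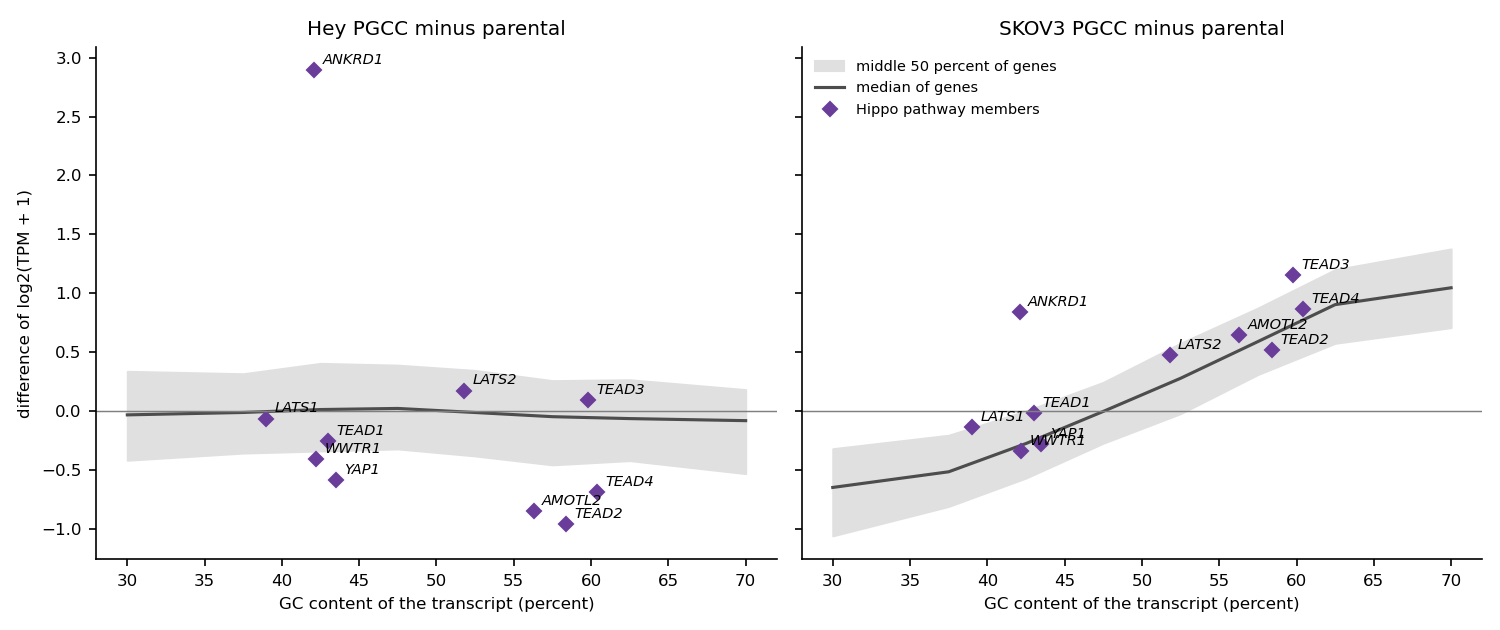
Difference of log2(TPM + 1) between PGCCs and parental cells against the GC content of the transcript (percent) in Hey and SKOV3, with the median and the middle 50% of genes in GC bins and the 10 members as diamonds. In SKOV3 the members range from WWTR1 at -0.34 to TEAD3 at 1.16. ANKRD1, LATS1 and TEAD3 lie at or above the upper edge of the band, and TEAD1 and LATS2 lie inside it near that edge. The remaining members sit nearer to the rising median of genes, and in Hey that median is flat.

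The readouts of YAP and TAZ activity were examined in a published signature of target genes, of which 19 remained once the members in it were set aside. All 19 had a mean of at least 1 TPM. In Hey PGCCs 2 of 19 rose and 3 fell against parental cells (7.67% and 5.22% of all genes), with a median difference of -0.564 (all genes 0). In Hey daughter cells 1 rose and 2 fell (6.31% and 3.73% of all genes), with a median of -0.257 (all genes 0.0497). In SKOV3 PGCCs 3 rose and 0 fell (9.94% and 4.96% of all genes), with a median of 0.0944 (all genes 0.0173). With the trend of GC content and length removed 1 rose and 0 fell (2.4% and 2.64% of all genes), and the median was -0.00802. In SKOV3 daughter cells 5 rose and 2 fell (15.1% and 6.34% of all genes), with a median of 0.773 (all genes 0.148). When the trend was removed 4 rose and 3 fell (11% and 7.54% of all genes), with a median of 0.492.

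CCN1, a secreted matrix protein gene and an early YAP target, showed the widest split between the lines. It was at 459, 106 and 323 TPM in the parental, PGCC and daughter libraries of Hey and at 3.45, 46.7 and 49.9 TPM in those of SKOV3. It fell by 2.11 in Hey PGCCs and rose by 3.42 in SKOV3 PGCCs and by 3.52 in SKOV3 daughter cells. The Hey PGCCs were the lowest Hey library and still exceeded every SKOV3 library. CCN2 was at 1070, 477 and 881 TPM in Hey and at 75.9, 84.4 and 167 TPM in SKOV3, and it fell by 1.16 in Hey PGCCs and rose by 1.13 in SKOV3 daughter cells. AXL, a receptor tyrosine kinase gene tied to drug resistance, was at 332, 149 and 421 TPM in Hey and at 114, 230 and 119 TPM in SKOV3, and it fell by 1.15 in Hey PGCCs and rose by 1.01 in SKOV3 PGCCs. With the trend of GC content and length removed, AXL was at 0.59 in SKOV3 PGCCs and CCN2 at 0.999 in SKOV3 daughter cells, neither past 2-fold.

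ANKRD1 thus departed from CCN1, CCN2 and AXL in Hey PGCCs, where it rose and the 3 others fell. CCN2 TPM divided by ANKRD1 TPM was 566, 23.3 and 63.0 in the parental, PGCC and daughter libraries of Hey and 25.1, 13.6 and 1.64 in those of SKOV3. Parental cells had the highest ratio of each line.

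On the deposited scale the other targets, F3 apart, passed 2-fold against parental cells in at most 1 line. In Hey PGCCs GADD45A, a stress gene that restrains the cell cycle, rose by 1.71 (from 173 to 565 TPM) and was at 110 TPM in the daughter cells, and NUAK2, a kinase gene of the AMPK family, rose by 1.08 from 0.472 to 2.12 TPM. NUAK2 also rose in Hey daughter cells, by 1.21. In SKOV3 NUAK2 was 0.71 (PGCCs) and 0.88 (daughter cells) above parental cells, and 0.15 and 0.56 with the trend removed. GADD45A was at 109, 74.5 and 196 TPM in the parental, PGCC and daughter libraries of SKOV3, so its highest library was not the PGCCs there. In SKOV3 ARHGEF17, a guanine nucleotide exchange factor gene, rose by 1.27 in PGCCs and by 1.72 in daughter cells; its PGCC difference was 0.22 with the trend of GC content and length removed. TGFB2, a TGF-beta ligand gene, rose by 3.01 in SKOV3 daughter cells (from 3.00 to 31.3 TPM), and CRIM1 rose there by 1.58. FOXF2 fell by 1.01 in Hey daughter cells and NT5E by 1.23 in SKOV3 daughter cells. In daughter cells of the other line both were lower without reaching 2-fold, FOXF2 at -0.72 (SKOV3) and NT5E at -0.93 (Hey). With the trend of GC content and length removed, FOXF2 was at -1.08 in Hey and -1.06 in SKOV3 daughter cells. NT5E was then at -0.99 and -1.35. F3, which encodes tissue factor, was the only target with calls of like sign in the lines on the deposited scale, having fallen by 1.37 in Hey daughter cells and by 1.71 in SKOV3 daughter cells. Of the 19, 13 had windows in the promoter table, and 6 of their 14 windows held the TEAD motif. They were those of CCN2, AXL, FOXF2, PTPN14, NUAK2 and TGFB2. The motif was in 14.03% of all windows and in 11.51% of the windows of genes with a mean of at least 1 TPM.

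**Figure D5:**
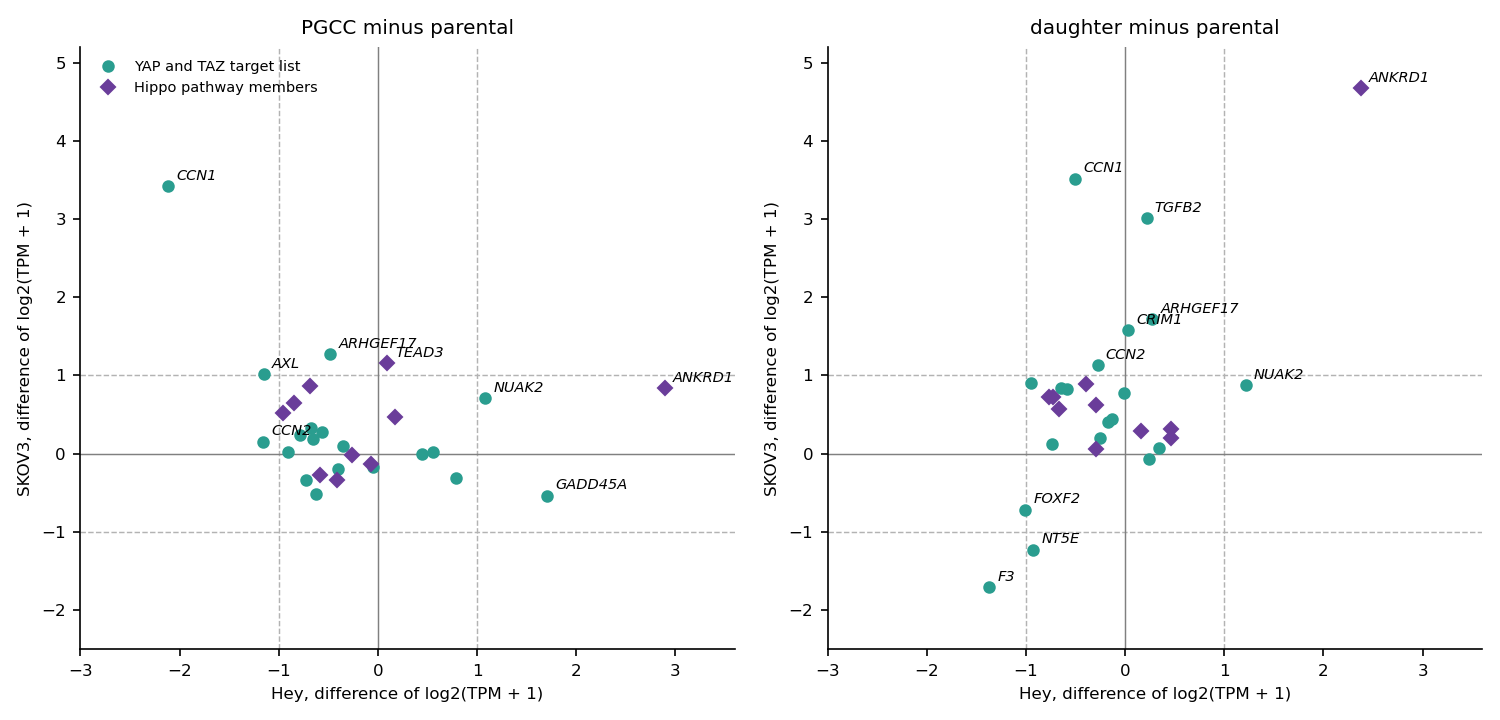
Difference of log2(TPM + 1) from parental cells in Hey (horizontal) and SKOV3 (vertical) for the 19 targets (circles) and the 10 members (diamonds), in PGCCs (left) and daughter cells (right); dashed lines mark 2-fold and genes past it in either line are named. CCN1 lies at -2.11 and 3.42 in PGCCs, and ANKRD1 at 2.37 and 4.68 in daughter cells.

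Upstream of LATS, 30 genes of the kinase core, its scaffolds and its polarity inputs were counted, 28 of them with a mean of at least 1 TPM. On the deposited scale none passed 2-fold against parental cells in Hey PGCCs (7.67% of all genes higher, 5.22% lower) or Hey daughter cells (6.31% and 3.73%). With the trend of GC content and length removed, 0 passed in Hey PGCCs (6.38% and 4.98% of all genes). In Hey daughter cells 0 were then higher and 1, WWC1, was lower, at -1.12 (4.83% and 4.31%). The widest differences in Hey PGCCs were those of FAT1, an atypical cadherin gene (0.86), and STK38L (0.58) on the higher side and of SCRIB (-0.80) and WTIP (-0.72) on the lower. In Hey daughter cells they were those of FRMD6 (0.76), TAOK1 (0.71), WWC1 (-0.98) and FAT4 (-0.71). In SKOV3 PGCCs 4 rose and 0 fell (9.94% and 4.96% of all genes), led by SCRIB (1.57) and CRB3 (1.09), both polarity genes. With the trend of GC content and length removed 0 remained past 2-fold, against 2.4% of all genes higher and 2.64% lower. The lowest in SKOV3 PGCCs were STK4 (-0.91) and MOB1A (-0.83). In SKOV3 daughter cells 10 rose and 2 fell (15.1% and 6.34% of all genes), and 5 and 2 with the trend removed (11% and 7.54%). STK3 and STK4, which encode the MST kinases that activate LATS, were not among them, at 48.4, 43.6 and 38.8 TPM and at 39.2, 20.3 and 22.5 TPM in the parental, PGCC and daughter libraries of SKOV3. SAV1, the scaffold of the MST kinases, was at 28.6, 24.3 and 98.0 TPM and rose by 1.74 in SKOV3 daughter cells. NF2, which encodes merlin and recruits LATS to the membrane, was at 27.6, 42.6 and 87.0 TPM and rose there by 1.62.

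The largest rises of the upstream genes in SKOV3 daughter cells were those of FAT4, an atypical cadherin gene, by 1.96 (from 0.874 to 6.27 TPM) and WWC1, which encodes the scaffold KIBRA, by 1.89 (from 57.5 to 217 TPM). The 2 that fell were the kinase genes TAOK3, by 1.89, and MAP4K4, by 1.23. In Hey daughter cells WWC1 was at 24.2 TPM against 48.6 TPM in parental cells. In Hey, SAV1 was at 29.0, 37.1 and 34.7 TPM, NF2 at 23.9, 18.0 and 36.8 TPM, STK3 at 36.2, 25.5 and 44 TPM and STK4 at 55.6, 53.4 and 65.8 TPM in parental cells, PGCCs and daughter cells.

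Between PGCCs and daughter cells of Hey, 0 upstream genes were higher and 1, WTIP, was lower (-1.08), against 8.13% and 9.95% of all genes. In SKOV3, 3 were higher and 8 lower in PGCCs, against 9.25% and 14.6% of all genes. The SKOV3 median difference was -0.402, against -0.118 for all genes. With the trend removed the SKOV3 counts were 2 and 4 (7.45% and 10.5% of all genes). The Hey counts were then 1 and 0 (8.46% and 8.06% of all genes), with WWC1 at 1.03 and WTIP at -0.84. Of 13 genes of the STRIPAK phosphatase complex, which opposes the MST kinases, none passed 2-fold in Hey. Their differences from parental cells there lay between -0.82 and 0.83. Of all genes, 7.67% were higher and 5.22% lower than parental cells in Hey PGCCs, and 6.31% and 3.73% in Hey daughter cells. In SKOV3 PGCCs 1 of the 13 was higher and 1 lower than in parental cells (9.94% and 4.96% of all genes). STRN4 was 1.16 above and MOB4 1.31 below, a fall from 83.4 to 33.1 TPM for MOB4, and neither passed with the trend removed. In SKOV3 daughter cells 0 passed against parental cells (15.1% and 6.34%). With the trend removed STRIP2 was lower there, at -1.15 (11% and 7.54%). For PGCCs against daughter cells of SKOV3 STRN3 was lower, at -1.36 (9.25% and 14.6%), and at -0.90 with the trend removed.

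The vestigial-like cofactors, which compete with YAP and TAZ for TEAD, showed no difference past 2-fold on the deposited scale. With the trend of GC content and length removed, VGLL3 was 1.38 higher in SKOV3 PGCCs than in their daughter cells. VGLL1 was listed at 0 in all 6 libraries and VGLL2 did not exceed 0.144 TPM. VGLL3 was at 13.9, 13.4 and 7.91 TPM in the parental, PGCC and daughter libraries of Hey and at 3.61, 4.04 and 1.96 TPM in those of SKOV3. VGLL4, a repressor of TEAD activity, was between 22.6 and 30.4 TPM in the 6 libraries.

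The lines were compared by whether their libraries overlapped. Every Hey library was above every SKOV3 library for 2 of the 10 members, LATS2 and AMOTL2, against 12.8% of all genes. Every SKOV3 library was above every Hey library for 4, WWTR1, TEAD1, TEAD2 and TEAD3, against 31.8% of all genes. YAP1, TEAD4, LATS1 and ANKRD1 overlapped. These counts of members are near the shares of all genes. Over all genes the median difference of Hey minus SKOV3 was -0.373 on the deposited scale. Scaling by the median ratio moved that median to -0.0707, after which TEAD4, LATS2 and AMOTL2 were apart with Hey higher and WWTR1, TEAD1 and TEAD3 with SKOV3 higher, and TEAD2 overlapped.

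A linear model over all genes with line and state as terms (limma, 2 residual degrees of freedom) compared the lines over the 3 states. It called 3093 of 14988 genes at an adjusted p under 0.05 (20.6%), of which 30.4% were higher in Hey, or 47.4% of 2766 genes after scaling by the median ratio. Among the 10 members 3 were called. LATS2 was higher in Hey by 1.32 (SE 0.311, limma adjusted p = 0.0256), with all 3 Hey libraries above all SKOV3 libraries. TEAD3 was lower in Hey by -1.54 (SE 0.388, limma adjusted p = 0.0312) and WWTR1 by -1.23 (SE 0.359, limma adjusted p = 0.0494), each in all 3 states. TEAD2 at -1.28, TEAD1 at -1.01 and TEAD4 at 0.91 were not called, with limma adjusted p of 0.0623, 0.0834 and 0.138. Over the alternatives with all 6 libraries the limma adjusted p ranged from 0.0126 to 0.0902 for LATS2, from 0.0280 to 0.133 for TEAD3 and from 0.0457 to 0.146 for WWTR1. None of these fits had a trend with GC content removed. The median Hey minus SKOV3 difference, averaged over the 3 states, was -0.195 for genes under 40% GC and -0.551 for genes of 60% or more. Leaving out any 1 of the 6 libraries left 1 residual degree of freedom and no member called.

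The same model compared the states over both lines, where its error is the disagreement between Hey and SKOV3. For PGCCs against parental cells it called 3 of all genes (0.02%) and 0 of the 10 members by limma, with 0 members and 409 genes at an unadjusted p under 0.05. For daughter cells against parental cells it called 2 genes (0.0133%) and 0 members. ANKRD1 was the 1 member, among 508 genes, at an unadjusted p under 0.05, with a difference of 3.53 (SE 0.893, limma adjusted p = 1), higher in both lines. For PGCCs against daughter cells it called 0 genes (0%) and 0 members, with 758 genes and 0 members at an unadjusted p under 0.05. A missed threshold in a fit of this size does not show that the states were alike.

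Likeness of pattern was described by Pearson's r of log2(TPM + 1) over the 6 libraries among 10791 genes with a mean of at least 5 TPM. The genes most like YAP1 were POT1 (r = 0.998) and RABGAP1L (0.988). Those most like WWTR1 were CHCHD3 (0.995), PKD2 (0.994) and CUL1 (0.992), and TEAD1 was at 0.976. Those most like ANKRD1 were LIPT1 (0.991), TMEM45A (0.984) and CLSTN3 (0.980), whereas ANKRD1 against CCN1 and CCN2 gave 0.040 and -0.055. With 6 libraries that share line and treatment, high values among so many genes are common and describe these libraries only.

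The identity of the lines was checked by marker genes. ERBB2, amplified in SKOV3, was at 1127 to 1778 TPM in the SKOV3 libraries and at 8.20 to 14.1 TPM in those of Hey. Of 8 epithelial markers, the keratin genes KRT7, KRT8 and KRT18 and the ovarian lineage gene PAX8 were expressed in all 6 libraries. CDH1 and EPCAM did not exceed 1.43 TPM in Hey. KRT19 was at 2.47 TPM in parental Hey cells and was listed at 0 in their daughter cells. In SKOV3 KRT19 was at 292, 711 and 80.2 TPM in the parental, PGCC and daughter libraries. MUC16 did not exceed 0.0322 TPM in Hey and was at 1.15, 1.59 and 0.00564 TPM in those of SKOV3. CDH5, an endothelial cadherin gene, was at 33.2 to 48.5 TPM in Hey, with PECAM1 and VWF under 1 TPM in all 6 libraries. Of 5 blood markers only CD68 exceeded 1 TPM, CD3E was listed at 0 in all libraries, and the summed level was 1.69 to 69.5 TPM. The libraries summed to 911825 to 920497 TPM and had 19920 to 25370 genes above 0. The paper gives a narrow range of summed mapped counts over all its samples. Read counts per gene are not part of the table, so the count behind each gene's value is unknown.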

How the data were processed

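Total RNA of 6 cultures of the Hey and SKOV3 cell lines was sequenced, 1 library per line and state. The authors trimmed reads (the submitters' processing notes name fastp) and quantified them on the human transcriptome (hg38) with salmon 0.14.1. The TPM values were used as deposited, 1 per gene symbol and library. Which annotation release was used, and whether salmon corrected for sequence or GC bias, is not given in the sources used here.

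Differences were taken within a line on log2(TPM + 1) from the deposited TPM, called at 2-fold with no p-value, and a mean of at least 1 TPM defined all genes. limma 3.58.1 (R 4.3.3) was run on log2(TPM + 1) with line and state as terms, an intensity trend and Benjamini-Hochberg adjustment, and was tested on simulated data. p-values measure only the spread between these libraries. GC content and length came from GENCODE 44, and their trend was removed by lowess (fraction 0.3, 2 passes). Other steps ran in Python 3.11.15 (statsmodels 0.14.6, pandas 2.3.3, numpy 2.4.6). Genes of the upstream, STRIPAK, cofactor and target lists were all counted. Those called in both lines, the 2 highest and 2 lowest differences per line and state in the target and upstream lists, and the core genes CCN1, CCN2, AXL, STK3, STK4, SAV1, NF2, VGLL3 and VGLL4 were named. CRIM1, WTIP, STRN3, STRN4, STRIP2, VGLL1 and VGLL2 were named after their values were seen. A gene with a pattern like that of YAP1 is not reported here. PTPN14 is in both the upstream and the target list. The members and lists were chosen with earlier results of these data known. Alternatives changed the pseudocount, scaling, threshold, filter and trend.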

Additional observations from a re-analysis of the deposited data

Results flagged for a closer look

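Several genes moved in opposite directions in the lines, and none of these differences between lines was tested, since each state of a line is 1 library. The values are differences of log2(TPM + 1). AMOTL2 was at -0.85 in Hey and 0.65 in SKOV3 for PGCCs against parental cells, and at -0.73 and 0.72 for daughter cells. TEAD4 was at -0.69 in Hey and 0.87 in SKOV3 for PGCCs against parental cells. TEAD2 was at -0.77 in Hey and 0.72 in SKOV3 for daughter cells against parental cells. With the trend of GC content and length removed, the SKOV3 PGCC differences of AMOTL2 and TEAD4 were 0.06 and 0.13.

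Among the targets CCN1 was at -2.11 in Hey and 3.42 in SKOV3, and AXL at -1.15 and 1.01, for PGCCs against parental cells. The SKOV3 value of AXL was 0.59 with the trend removed. GADD45A was at 2.36 in Hey and -1.38 in SKOV3 for PGCCs against daughter cells.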

How the results depend on the processing

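Of 300 recomputed differences of members, 283 kept their sign, and none of the 17 that changed sign was past 2-fold. In PGCCs against parental cells the count of called members in Hey went from 1 to 2 with a pseudocount of 0.1 or median-ratio scaling (TEAD2 joined) and to 5 at 1.5-fold, and in SKOV3 from 1 to 2 with a pseudocount of 0.1 (ANKRD1 joined), 4 at 1.5-fold and 0 at 3-fold. At 1.5-fold it was 4 in Hey daughter cells, 5 in SKOV3 daughter cells, and, for PGCCs against daughter cells, 1 in Hey and 5 in SKOV3. The shares of all genes past 1.5-fold were 31.5%, 27.9% and 39.2% in Hey and 39.2%, 41.7% and 46.7% in SKOV3 for PGCCs against parental, daughter against parental and PGCCs against daughter cells. For PGCCs against daughter cells of SKOV3 the count of 1 at 2-fold became 2 with quantile normalization (TEAD3 at 1.09 joined) and 4 with mitochondrial transcripts left out (YAP1 at -1.03, WWTR1 at -1.04 and TEAD1 at -1.03 joined). For the limma comparison of the lines, 3 called members became 1 with median-ratio scaling and 0 with all genes above 0 TPM in the fit, where 31474 genes were tested. Leaving out each library in turn, added after seeing the data, gave 0 to 0 members, with 0 genes in all called when a PGCC library was left out and 983 to 2120 otherwise. Called targets went from 3 to 5 in Hey daughter cells with median-ratio scaling and from 3 to 1 in SKOV3 PGCCs with the trend of GC content and length removed. The causes were not tested. The labels give no replicate numbers, so libraries could be matched only by line and state. The limma comparisons of the states hold the cell line as a term, and the comparison of the lines holds the state. Low genes such as TEAD3 in Hey are the ones a pseudocount of 1 compresses most.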
